A study of Saccharomyces cerevisiae with 23 samples.

Results

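The introns of Saccharomyces cerevisiae cells lacking NAM8 were followed from log phase to 48 h of culture. All rows of the count table of the nam8D genotype were taken, which held 283 of the 284 introns of the series, in 6 of its 23 libraries (3 from log phase and 3 from 48 h). The study compared wild type, a mud1D mutant and nam8D in both phases by multiplexed primer extension sequencing, in which reverse transcription starts from primers beside chosen introns, so that reads tell spliced (mature) from unspliced (premature) RNA. All 6 nam8D libraries were total RNA, extracted with hot acid phenol, from cells of the BY background (a common laboratory strain family) that carry the nam8D deletion, grown in minimal medium with 2% D-glucose. The first group was collected in log phase and the second in stationary phase, which the labels call saturation, at 48 h. The wild-type libraries used for comparison (sets WTa and WTb, 5 in log phase and 6 at 48 h) and the mud1D libraries (3 and 3) came from the same medium and phases.

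Nam8 is a protein of the yeast U1 small nuclear ribonucleoprotein (U1 snRNP), the particle that first recognises the 5′ splice site. It contacts the intron just downstream of the splice site, with a known preference for uridine-rich sequence, and is best known for its role in splicing of meiotic transcripts together with the meiosis-specific factor Mer1. Yeast ribosomal protein genes hold a large part of the introns that a growing cell has to splice. Their transcription falls when nutrients run out, whereas genes of respiration are expressed more strongly.

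The libraries held from 6693650 to 7144846 counts in log phase, both forms summed, and from 3926278 to 4503270 at 48 h. Of the 283 introns, 277 were listed in all 6 libraries, and 265 were listed with enough counts in all 23 libraries to be tested in the joint fit. NAM8 has no row in the table, so its deletion was not checked here. The intron of MUD1, the gene named by the other mutant's genotype, was read at 207, 230.1 and 222 CPM in log phase and 688, 651 and 611 CPM at 48 h (CPM, counts scaled to a library total of 1000000), so the nam8D libraries hold its RNA. At 48 h replicate 1 stood apart from the other two of its group. Its pooled premature share was 6.43% against 7.64% and 7.50%, and its counts differed from theirs with a chi-square per degree of freedom of 107 and 71.8, against 15.5 between replicates 2 and 3. In log phase replicate 3 stood apart in the same way, with 52.4 against replicate 1 and 43.8 against replicate 2. Between log-phase replicates 1 and 2 the value was 12. The 48 h replicate 1 also carries the strain name of the log-phase replicates 2 and 3 (JPY28H5), whereas 48 h replicates 2 and 3 are named JPY28A8 and log-phase replicate 1 is named JPY2863. The same strain names recur among wild-type and mud1D libraries and run across genotypes, so they do not identify a strain and may be wrong, and no group was made from them. Between the libraries named JPY28H5 alone, with 2 log-phase libraries and 1 library at 48 h, the median change was 0.92 on the log2 scale.

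The beginnings of 8 introns are shown because the results below turn on them, with annotated coordinates and sequence from the RefSeq annotation of build R64. They are DBP2 (chrXIV:414912-415913, plus strand), ECM33 (chrII:393181-393510, plus strand), RPL22B (chrVI:64600-64920, minus strand) and ACT1 (chrVI:54378-54686, minus strand), which rose in premature share, and QCR10 (chrVIII:107832-107894, plus strand), COX5B (chrIX:155223-155310, plus strand) and GCR1 (chrXVI:412262-413012, plus strand), which fell. MRK1 (chrIV:314045-314336, minus strand) is shown for its T-rich start and its share, whose change did not pass the test. All 8 lie between coding exons in that annotation. Each line gives the first 36 bases 5′ to 3′ on the gene's strand. The capitals mark the 5′ splice site, the first 6 bases, for which GTATGT is the usual form in yeast.
DBP2: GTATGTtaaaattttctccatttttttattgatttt
ECM33: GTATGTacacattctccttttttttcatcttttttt
MRK1: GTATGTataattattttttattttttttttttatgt
RPL22B: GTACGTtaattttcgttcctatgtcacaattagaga
ACT1: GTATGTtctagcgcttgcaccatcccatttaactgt
QCR10: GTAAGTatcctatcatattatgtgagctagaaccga
COX5B: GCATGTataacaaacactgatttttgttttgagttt
GCR1: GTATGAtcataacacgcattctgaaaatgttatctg

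At 48 h a larger part of the RNA of most introns was unspliced. Premature share here means premature counts as a percentage of all counts of that intron. Its median over the 265 tested introns was 4.40%, 4.12% and 4.59% in the 3 log-phase libraries and 8.14%, 9.72% and 9.09% at 48 h, so the groups did not overlap. The test asked whether log2 of premature over mature counts changed, and a call needed an adjusted p under 0.05 with edgeR's quasi-likelihood test. Of 265 introns, 188 (70.9%) rose, 26 (9.81%) fell and the others did not pass, with a median log2 change of 1.10. The 3 libraries at 48 h lay above all 3 log-phase libraries in premature share for 193 introns (72.8%) and below them for 27 (10.2%). When each library was centred on its median intron, which takes out the shift of 1.10, 102 introns (38.5%) rose and 107 (40.4%) fell relative to that median. Counts with centred libraries are given beside the lists below for that reason, and each list's counts are to be read against these overall shares. Without 48 h replicate 1, 191 rose and 25 fell.

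**Figure D1:**
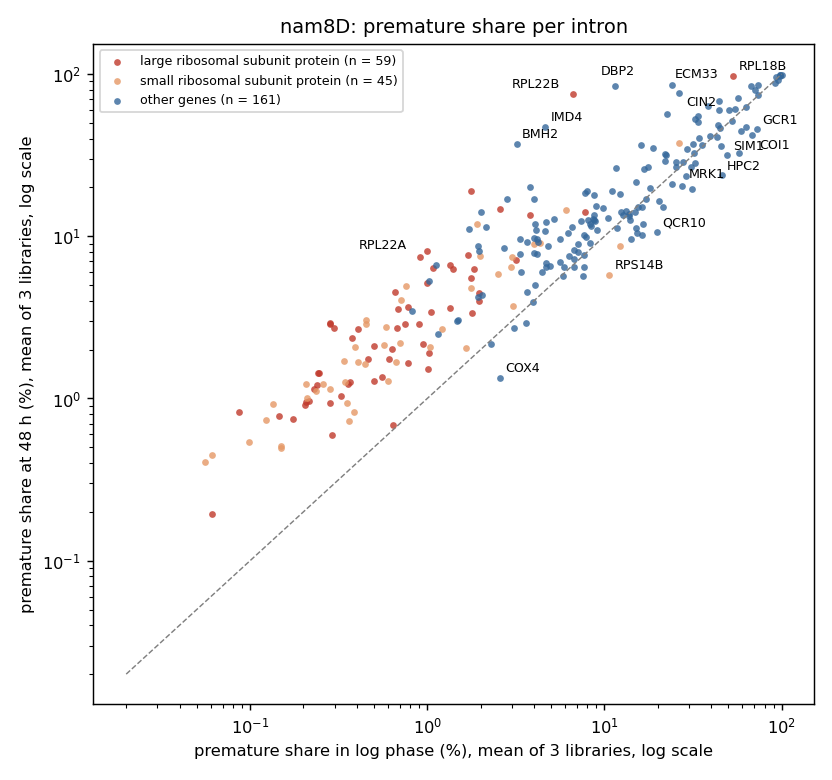
Premature share (%) of the 265 tested introns in nam8D, mean of 3 log-phase libraries (x axis) against mean of 3 libraries at 48 h (y axis), both log scales, with ribosomal protein introns in red and orange. Most points lie above the dashed line of equality, with RPL22B, IMD4 and BMH2 well above it, while COX4, RPS14B and QCR10 lie below.

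Introns of ribosomal protein genes rose almost without exception. For the large subunit, 58 of 59 tested introns rose and none fell, with a median log2 change of 2.09 against 1.10 over all introns, and with centred libraries 46 were higher and 2 lower. For the small subunit, 43 of 45 rose and 2 fell, with a median of 1.89, and with centred libraries 28 were higher and 5 lower. The median share over the 104 ribosomal protein introns was 0.628%, 0.567% and 0.670% in log phase and 2.14%, 2.44% and 2.30% at 48 h. Over the 161 introns of other genes it was 12.1%, 10.5% and 12.5% in log phase and 13.2%, 14.7% and 14.8% at 48 h. Introns of ribosomal protein genes thus began from a lower share and moved by a larger ratio.

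RPL22B, which encodes a large-subunit protein known to bind and hold back splicing of its own transcript, had the largest increase. Its premature share was 6.61%, 6.24% and 7.10% in log phase and 76.5%, 75.6% and 74.3% at 48 h (log2 change 5.43 ± 0.16 SE, adjusted p = 3.63e-25). Mature RPL22B RNA went from a mean of 450.5 ± 24.2 to 73.2 ± 9.52 CPM (SD, n = 3 each), while the premature form went from 32.2 ± 3.95 to 226 ± 41.3 CPM. Its paralogue RPL22A, the more abundant copy, was unspliced at 0.867%, 0.772% and 1.08% in log phase and 7.58%, 8.13% and 6.76% at 48 h (log2 change 3.15 ± 0.14 SE, adjusted p = 1.34e-20). Both copies therefore held more intron at 48 h in every library than in any log-phase library. Many ribosomal protein genes have near-identical copies, and their values are uncertain because the sources used here do not say how reads were divided between copies.

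RPL18B encodes a protein of the large subunit. It already had a high premature share in log phase, at 58.2%, 54.6% and 47.2% in log phase and 97.5%, 97.9% and 98.2% at 48 h (log2 change 5.33 ± 0.19 SE, adjusted p = 9.63e-23). Mature RPL18B RNA went from 520.2 ± 46.9 to 118 ± 16.8 CPM and premature RNA from 598 ± 95.6 to 5419 ± 271 CPM (means ± SD, n = 3 each). The sum of both forms therefore rose while the spliced form was lower at 48 h.

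Among the other large-subunit introns that rose most were RPL21B (log2 change 3.38), RPL14A (3.37), RPL7A intron 1 (3.24) and RPL16B (3.18), all of which had shares under 1% in log phase. The exception in the large subunit was RPL43B, which did not pass (log2 change 0.10, adjusted p = 0.526). In the small subunit RPS14B and RPS22B intron 2 went the other way and are the only ribosomal protein introns that fell. RPS14B encodes a protein that represses its own splicing, and its share was 10.7%, 10.3% and 11.03% in log phase and 6.80%, 4.88% and 5.69% at 48 h (log2 change -0.97 ± 0.13 SE, adjusted p = 2.19e-08). The groups did not overlap, and RPS14B RNA rose in the same libraries, at 949, 912 and 925 CPM in log phase and 3307, 3726 and 3665 CPM at 48 h (log2 change 1.94 ± 0.07 SE, adjusted p = 9.87e-18).

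RPS22B holds 2 tested introns that moved in opposite directions. Intron 1 was unspliced at 6.16%, 6.25% and 5.81% in log phase and 9.98%, 16.7% and 16.6% at 48 h (log2 change 1.35 ± 0.19 SE, adjusted p = 5.50e-08). Intron 2, which hosts a small nucleolar RNA (snoRNA), was at 12.5%, 12.3% and 11.9% in log phase and 5.88%, 10.3% and 9.74% at 48 h (log2 change -0.60 ± 0.16 SE, adjusted p = 8.31e-04). For both introns 48 h replicate 1 was the lowest library of its group. The difference between the introns of 1 transcript was not tested.

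**Figure D2:**
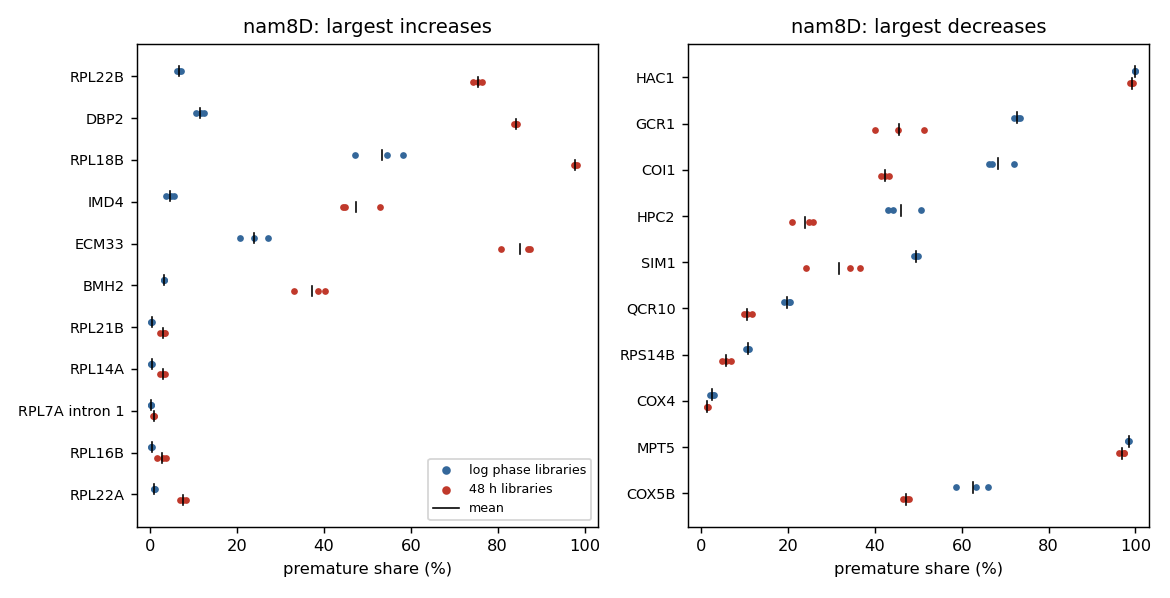
Premature share (%) in each nam8D library for 11 of the 12 introns with the largest increase (left) and the 10 with the largest decrease (right), with log-phase libraries in blue, 48 h libraries in red and a bar at each mean. The groups do not overlap for any of them, which was a condition for choosing them.

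Of 10 tested introns in genes of splicing and mRNA export, 8 rose and 1 fell (SUS1 intron 2), close to the 70.9% and 9.81% over all introns. Their median of 0.86 was below the overall 1.10, and with centred libraries 1 was higher and 4 lower. The 1 that stayed higher was DBP2, an RNA helicase that controls its own level through its intron. DBP2 was unspliced at 11.6%, 10.5% and 12.5% in log phase and 84.5%, 84.3% and 83.8% at 48 h (log2 change 5.36 ± 0.18 SE, adjusted p = 6.71e-24), so spliced RNA was the main form in log phase and the unspliced form at 48 h. Mature DBP2 RNA went from 503 ± 56.8 to 66.5 ± 5.14 CPM (SD, n = 3 each). Its intron is the longest annotated one among those tested, with 1002 bases. YRA1, an mRNA export adaptor that also limits itself through its intron, had a log2 change of 1.41 (adjusted p = 1.05e-09). Over the list of genes regulated through their own intron, 9 of 10 rose and 1 fell (RPS14B), with a median of 1.74, and with centred libraries 7 were higher and 1 lower.

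The list of snoRNA hosts, genes whose introns hold small nucleolar RNAs, shares 6 of its 11 tested introns with the ribosomal protein lists. Of the 11, 9 rose and 1 fell (RPS22B intron 2), with a median of 1.95, and with centred libraries 6 were higher and 3 lower. IMD4, an IMP dehydrogenase gene of guanine nucleotide synthesis, was unspliced at 4.73%, 3.69% and 5.47% in log phase and 44.5%, 52.8% and 44.9% at 48 h (log2 change 4.23 ± 0.18 SE, adjusted p = 5.02e-21). Its RNA fell to 105 ± 8.99 CPM from 762 ± 47.6 (SD, n = 3 each). The 3 tested introns of translation factor genes rose (median 1.28), with centred libraries giving 1 higher and none lower. Of these, TEF4 (an elongation factor subunit) had 2.65 and EFB1 (another subunit of that factor) had 1.28 on the log2 scale.

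In the cell wall list, 2 of 3 introns rose and 1 fell, with a median of 2.80 and the same split with centred libraries. ECM33, a glycosylphosphatidylinositol-anchored wall protein, was unspliced at 23.9%, 20.6% and 27.2% in log phase and 80.8%, 87% and 87.4% at 48 h (log2 change 4.21 ± 0.18 SE, adjusted p = 1.34e-20). Its mature RNA went from 273 ± 6.24 to 166 ± 2.85 CPM and its premature RNA from 86.3 ± 17.6 to 989 ± 258 CPM (means ± SD, n = 3 each), so the sum rose through its premature part. SUN4, which acts in septum formation, rose by 2.80 on the log2 scale. SIM1, a related wall protein of the same family, fell, at 49.8%, 48.9% and 49.5% in log phase and 24.2%, 34.3% and 36.5% at 48 h (log2 change -1.10 ± 0.20 SE, adjusted p = 5.16e-06), with 48 h replicate 1 the lowest library.

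Of 9 tested introns of kinases, phosphatases and their partners, 8 rose and none fell, against 70.9% and 9.81% of all introns. The list's median of 0.79 was below the overall 1.10, and with centred libraries 3 were higher and 4 lower, against 38.5% and 40.4% of all. BMH2, a 14-3-3 protein that binds phosphorylated partners, had the highest change of the list, at 3.16%, 3.19% and 3.23% in log phase and 33.1%, 40.1% and 38.6% at 48 h (log2 change 4.17 ± 0.13 SE, adjusted p = 1.90e-24). The member that did not pass was MRK1, a glycogen synthase kinase 3 homologue, at 25.1%, 27.3% and 31.3% in log phase and 23.8%, 31% and 30.9% at 48 h (log2 change 0.04, adjusted p = 0.833). MRK1 groups overlapped. In wild type the MRK1 share was 5.27% ± 0.693 (SD, n = 5) in log phase and 5.62% ± 1.22 (SD, n = 6) at 48 h, so a high share in nam8D was present in both phases.

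The introns that fell at 48 h included most of the mitochondrial list. Of 9 mitochondrial introns, 6 fell and 3 rose, with a median of -0.64, and with centred libraries none was higher and 8 were lower. QCR10, a subunit of respiratory complex III, was unspliced at 19.05%, 20.1% and 20.4% in log phase and 9.75%, 11.6% and 10.5% at 48 h (log2 change -1.06 ± 0.11 SE, adjusted p = 1.76e-10). COI1, a mitochondrial inner membrane protein that acts in respiratory complex assembly, was at 66.2%, 72.1% and 67.1% in log phase and 42.3%, 43.2% and 41.4% at 48 h (log2 change -1.57 ± 0.17 SE, adjusted p = 4.97e-10). COX5B, a cytochrome c oxidase subunit used when oxygen is low, was at 66.1%, 58.6% and 63.3% in log phase and 46.4%, 47.3% and 47.8% at 48 h, and its log2 change was -0.92. COX4 (log2 change -0.94), another subunit of that enzyme, and QCR9 (-0.62), another complex III subunit, fell as well. MRPL44, a protein of the mitochondrial ribosome, fell by 0.64. The 3 that rose were CQD1 (1.25), which acts in coenzyme Q distribution, CMC4 (0.67) and PTC7 (0.33), a phosphatase, and of these CMC4 and PTC7 were below the median intron.

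All 3 introns of the regulator list fell, with a median of -1.70, also with centred libraries. HAC1 encodes the transcription factor of the unfolded protein response, and its intron is removed by Ire1 and tRNA ligase rather than by the spliceosome. Its share was 99.95%, 99.94% and 99.95% in log phase and 98.8%, 99.4% and 99.1% at 48 h (log2 change -4.03 ± 0.33 SE, adjusted p = 3.21e-13), so most of its RNA was unspliced in all 6 libraries. GCR1, an activator of glycolytic genes, was at 72.1%, 72.9% and 73.3% in log phase and 40%, 45.2% and 51.3% at 48 h (log2 change -1.70 ± 0.18 SE, adjusted p = 2.52e-10), with no overlap. USV1, a zinc finger protein of the stress response, fell by 0.55. Outside these lists, HPC2, a subunit of a histone regulatory complex, was at 44.1%, 43.02% and 50.6% in log phase and 20.8%, 25.8% and 24.8% at 48 h (log2 change -1.45 ± 0.17 SE, adjusted p = 1.18e-09), and MPT5, an RNA-binding protein of the Puf family, fell by 0.94. The mating-type gene HMRA1 fell at intron 2 (-0.51, adjusted p = 0.00201) and rose at intron 1 (0.31, adjusted p = 0.0187), though by less than the median intron (1.10).

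The remaining lists moved less than the median of 1.10, apart from tubulin and dynein, where 5 of 5 introns rose with a median of 1.49 (with centred libraries 3 higher and 1 lower). There CIN2, a tubulin folding factor, had a log2 change of 3.13, and the alpha-tubulin genes TUB1 and TUB3 had 2.31 and 1.49. Of 7 actin cytoskeleton introns 6 rose and none fell (median 0.57), and with centred libraries 1 was higher and 5 lower. The actin gene ACT1 was unspliced at 4.40%, 3.81% and 3.93% in log phase and 10.1%, 12.9% and 12.5% at 48 h (log2 change 1.66 ± 0.13 SE, adjusted p = 8.94e-14). Of 8 introns of the ubiquitin and proteasome list, 5 rose and 1 fell (median 0.93), and with centred libraries 2 were higher and 4 lower. The 1 that fell was UBC5, a stress-induced ubiquitin-conjugating enzyme, at 18.8%, 14.7% and 15.6% in log phase and 9.36%, 11.4% and 9.63% at 48 h (log2 change -0.80 ± 0.18 SE, adjusted p = 9.60e-05). In vesicle transport 7 of 16 rose and none fell (median 0.45), and with centred libraries 2 were higher and 10 lower. YIP3 (log2 change 2.66), of the endoplasmic reticulum to Golgi route, and SEC14 (2.40), a phosphatidylinositol transfer protein, rose most. For endoplasmic reticulum membrane genes 3 of 6 rose (median 0.30) and for tRNA genes and modification 3 of 6 (median 0.47), with none falling in either, and with centred libraries none was higher and 4 and 5 were lower.

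**Figure D3:**
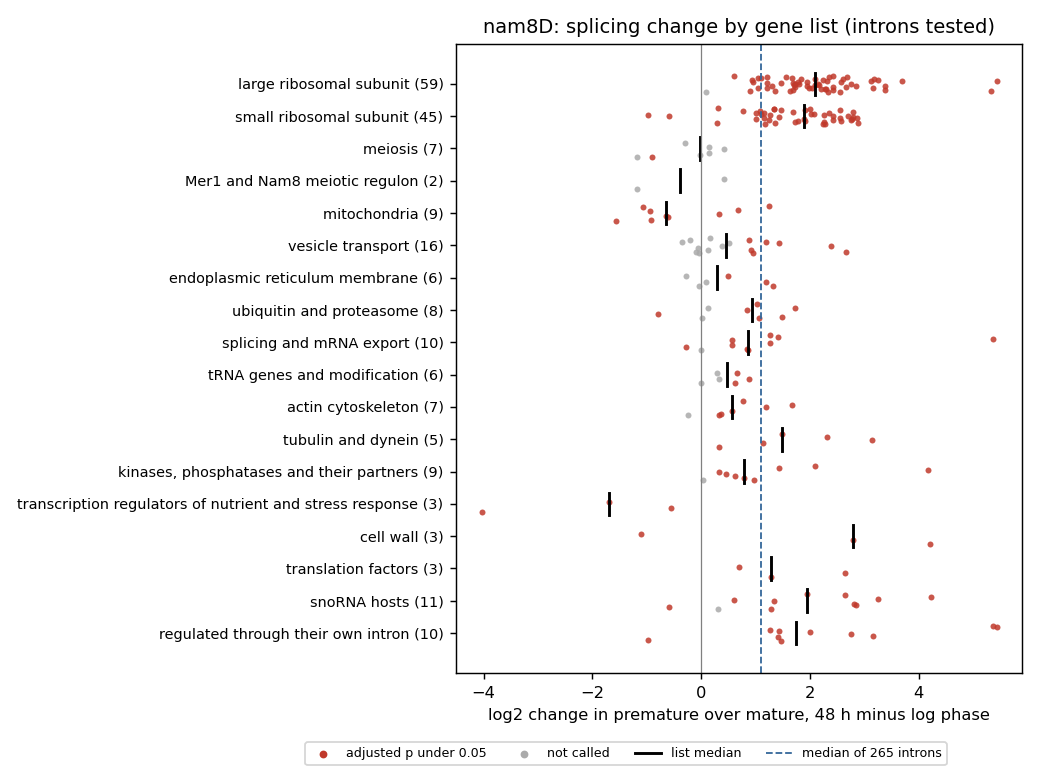
Log2 change in premature over mature (x axis, 48 h minus log phase) for each tested intron of the 18 gene lists, in red where the adjusted p was under 0.05 and in grey otherwise, with a black bar at each list's median. The bars of both ribosomal lists lie right of the dashed median of 1.10 over 265 introns, and those of the mitochondrial and regulator lists lie left of 0.

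Meiotic introns, among which the known targets of Nam8 are found, showed few changes in premature share that passed in nam8D. Of 13 listed introns of meiosis genes 7 had enough counts, of which 1 fell and none rose, with a median of -0.03, and with centred libraries 6 were lower. In wild type 5 of the 7 fell and none rose (median -1.77), against 28.7% and 51.7% of all introns. The nam8D change minus the wild-type change passed as positive for 3 of the 7 (median 1.15), against 75.8% of all introns. In mud1D 1 of the 7 rose and 2 fell (median -0.30), against 64.9% and 15.5% of all introns. The nam8D change minus the mud1D change passed for 0 of the 7, so the small change was not particular to nam8D. The 1 that fell was REC114, a meiotic recombination gene, at 29.9%, 32.2% and 31.98% in log phase and 19.4%, 20.3% and 19.3% at 48 h (log2 change -0.89 ± 0.21 SE, adjusted p = 2.66e-04). Of the 4 listed introns of the Mer1 and Nam8 regulon, 2 were tested and neither passed. REC107 was unspliced at 97.5%, 96.4% and 97.9% in log phase and 98.1%, 97.8% and 97.8% at 48 h (log2 change 0.42, adjusted p = 0.356), and PCH2, a meiotic checkpoint gene, at 98.4%, 91.1% and 98.3% in log phase and 87.4%, 96.9% and 89.7% at 48 h (log2 change -1.19, adjusted p = 0.0793). Both were almost wholly unspliced in all 6 libraries, and PCH2 was read at 8.67, 6.72 and 8.40 CPM in log phase and 21.1, 28.4 and 29.5 CPM at 48 h, so changes in share were poorly resolved at this depth.

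Abundance was taken as the sum of premature and mature counts per library total. It is relative to the other primed targets, and in bulk RNA fewer cells and less RNA per cell cannot be told apart. At 48 h 150 of 265 targets (56.6%) were higher and 78 (29.4%) lower by edgeR's quasi-likelihood test, with a median log2 change of 0.36. With relative log expression factors, whose median was -0.04, 117 (44.2%) were higher and 123 (46.4%) lower. Ribosomal protein targets took 896394 ± 3745 CPM in log phase and 749598 ± 18416 at 48 h (SD, n = 3 each). Their mature sum went from 890890.0 ± 3954 to 729137 ± 19807 CPM, and their premature sum from 5504 ± 273 to 20462 ± 1396 CPM. In 70 of the 104 ribosomal protein introns the mean mature level was lower and the mean premature level higher at 48 h, and in 32 both forms were higher. Of the 161 other introns, 34 had the mature form lower and the premature form higher, and 118 had both forms higher. Over all 265 introns these counts were 104 and 150.

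The targets that rose most included genes of meiosis, respiration and signalling. MND1, a meiotic recombination gene, was read at 8.10, 6.42 and 5.74 CPM in log phase and 261, 363 and 328 CPM at 48 h (log2 change 5.55 ± 0.18 SE, adjusted p = 8.32e-19) with no change in its share that passed. QCR10 was at 834, 946 and 1075 CPM in log phase and 14806, 18354 and 18311 CPM at 48 h (log2 change 4.17 ± 0.10 SE, adjusted p = 1.66e-20), COX4 rose by 3.82 and QCR9 by 3.29 on the log2 scale, all 3 with a falling premature share. MRK1 was at 53.2, 67.4 and 46.9 CPM in log phase and 690.2, 526 and 562 CPM at 48 h (log2 change 3.41 ± 0.20 SE, adjusted p = 8.26e-14). MRA1 (4.24), UBC5 (3.14) and CMC4 (3.13) completed the 8 largest increases. Libraries that did not overlap were a condition for naming these 8, which 57.4% of the 265 targets met on the higher side.

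SUN4 (log2 change -3.61), SIM1 (-3.21), IMD4 (-2.86) and TEF4 (-2.73) fell most in abundance, followed by both RPL7A introns (-2.20 and -2.10), RPL22A (-1.87) and ASC1 (-1.85), which encodes a ribosome-bound WD-repeat protein. SIM1 was the 1 intron that fell both in premature share and in abundance. Of the 188 introns whose premature share rose, 79 rose and 75 fell in abundance, and of the 26 whose share fell, 22 rose in abundance. Over all 265 introns 56.6% rose and 29.4% fell in abundance, or 44.2% and 46.4% with relative log expression factors. Across introns the changes in splicing and abundance had a Spearman correlation of -0.68 (n = 265), and of -0.54 within 104 ribosomal protein introns and -0.53 within 161 others. Both quantities contain the mature count of the same libraries, and introns are not replicates.

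**Figure D4:**
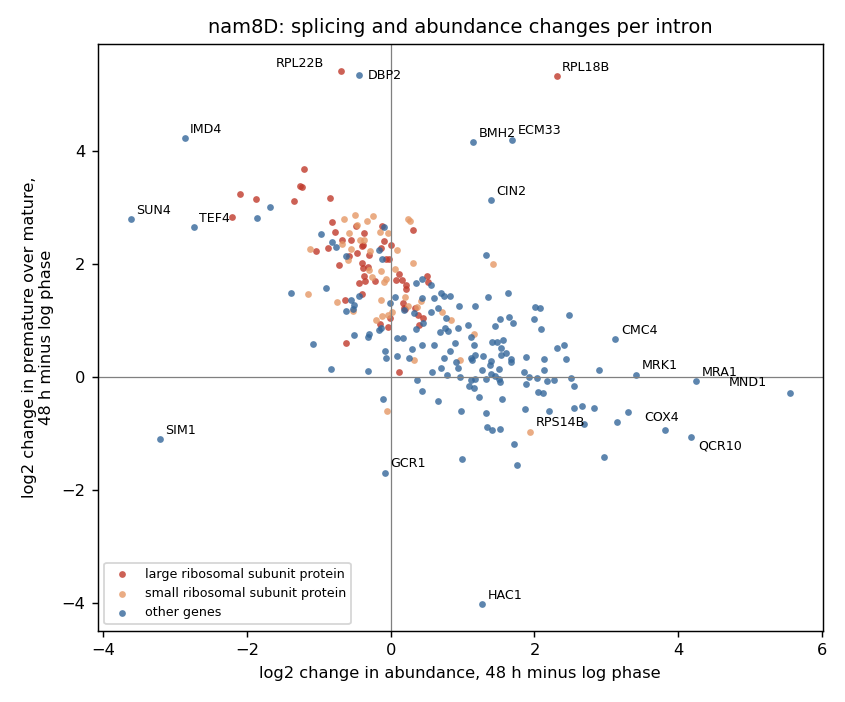
Log2 change in premature over mature (y axis) against log2 change in abundance (x axis), both 48 h minus log phase in nam8D, for the 265 tested introns. Ribosomal protein introns gather at upper left to centre, RPL18B, ECM33 and BMH2 are high on both axes, and QCR10 and COX4 are at lower right.

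The change at 48 h was larger in nam8D than in wild type for most introns. The difference between both changes, tested in the same fit by edgeR's quasi-likelihood test, was positive and passed for 201 of 265 introns (75.8%) and negative for 8 (3.02%), with a median of 0.81 on the log2 scale. With libraries centred on their median intron, 49 (18.5%) were higher and 61 (23%) lower, so part of the difference is a shift shared by the introns. Against WTa alone 202 were higher and 6 lower, and against WTb alone 152 and 4. Without 48 h replicate 1 the count of 8 became 5. Of the 188 introns that rose in nam8D, 134 were among the 137 (51.7% of 265) that rose in wild type. Of the 26 that fell, 23 were among the 76 (28.7%) that fell in wild type. For ribosomal protein introns the difference passed as positive for 85 and as negative for 4 of 104, with a median of 0.86, and for other introns the counts were 116 and 4 of 161, with a median of 0.78.

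DMC1, a meiotic recombinase, had the largest difference from wild type (3.22 ± 0.29 SE, adjusted p = 2.56e-11). Its share was 52.3% ± 6.88 (SD, n = 5) in log phase and 12.2% ± 2.99 (SD, n = 6) at 48 h in wild type and 46.9%, 47.9% and 38.96% in log phase and 38.7%, 51% and 50% at 48 h in nam8D, so the wild-type share fell and the nam8D change did not pass. The DMC1 change in nam8D minus that in mud1D did not pass either. ECM33 followed (3.05 ± 0.23 SE, adjusted p = 5.69e-13), with wild type at 15.9% ± 1.15 (SD, n = 5) in log phase and 30.03% ± 3.54 (SD, n = 6) at 48 h. For BMH2 (2.57 ± 0.16 SE, adjusted p = 6.39e-15) wild type was at 2.95% ± 0.960 (SD, n = 5) in log phase and 8.61% ± 1.20 (SD, n = 6) at 48 h. RPL7A intron 2 (2.42), DBP2 (2.37) and CQD1 (2.36) completed the 6 largest, and all 6 passed with centred libraries too. The 6 most negative differences belonged to RPS22B intron 2 (-0.97), MRPL44 (-0.80), RPS9A (-0.75), RPS22B intron 1 (-0.61), SIM1 (-0.57) and RPS14B (-0.52).

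A set of 17 introns rose in nam8D and fell in wild type. A positive difference from wild type is fixed by that choice, so its size is given as a description. In ACT1 the wild-type share was 4.15% ± 0.573 (SD, n = 5) in log phase and 3.33% ± 0.668 (SD, n = 6) at 48 h, against 4.40%, 3.81% and 3.93% in log phase and 10.1%, 12.9% and 12.5% at 48 h in nam8D (difference 2.04 ± 0.16 SE). Others were VPS75, a histone chaperone, CQD1, the DNA repair gene RAD14, and MOB1, a partner of a mitotic exit kinase. With centred libraries the difference from wild type passed for 7 of the 17, and relative to the median intron of nam8D 1 of the 17 (ACT1) rose and 10 fell. In the mud1D mutant the change was above 0 for 15 of the 17, against 199 of all 265 introns.

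**Figure D5:**
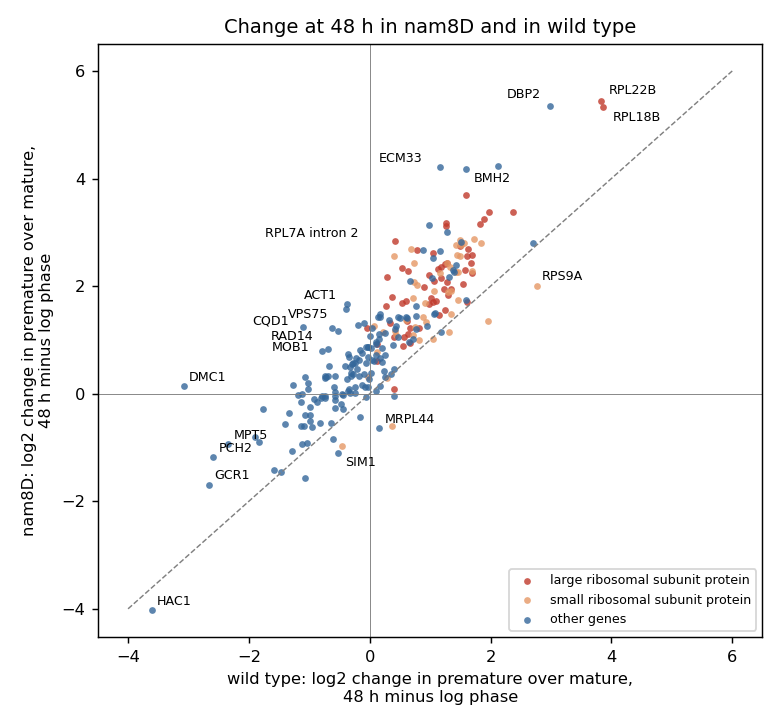
Log2 change in premature over mature (48 h minus log phase) in wild type (x axis) and in nam8D (y axis) for the 265 tested introns, with the dashed line of equal change. Most points lie above the line, ACT1, VPS75, CQD1 and RAD14 lie in the quadrant of a fall in wild type and a rise in nam8D, and RPS9A, MRPL44 and SIM1 lie below the line.

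Against mud1D, which affects another U1 snRNP protein, differences were fewer. The nam8D change exceeded the mud1D change for 26 of 265 introns (9.81%) and was below it for 14 (5.28%). The median difference was 0.05. With centred libraries the counts were 8 (3.02%) and 84 (31.7%), with a median of -0.29. Centring thus moved the middle of this contrast down, so both centred counts carry that offset. The counts of 26 and 14 were unstable: fitted on the nam8D and mud1D libraries alone they were 10 and 6. The 26 became 7 without log-phase replicate 2, 17 without log-phase replicate 1 or 48 h replicate 2, and 13 without 48 h replicate 3. The 14 became 9 without log-phase replicate 2 or 3 and 8 without 48 h replicate 1. Of the 188 introns that rose in nam8D, 164 were among the 172 (64.9%) that rose in mud1D, and of the 26 that fell 23 were among the 41 (15.5%) that fell there. The largest positive differences were in DID4 (1.05 ± 0.17 SE, adjusted p = 1.65e-04), of the endosomal sorting machinery, MAY24 (1.02), RPL7A intron 2 (1.01), ECM33 (0.97), TMH18 (0.95) and BET4 (0.93), a prenyltransferase subunit, of which TMH18 and BET4 did not pass with centred libraries. ECM33 in mud1D went from 16.4% ± 2.42 to 64.9% ± 6.10 (SD, n = 3 each). The largest negative ones were in RPL16B (-1.36 ± 0.32 SE, adjusted p = 0.00624), SRC1 (-1.18), an inner nuclear membrane protein, DBP2 (-1.08), RPL18B (-0.87), URA2 (-0.85), of pyrimidine synthesis, and NOG2 (-0.80), a ribosome assembly factor. DBP2 in mud1D went from 5.94% ± 0.159 to 84.4% ± 3.52 (SD, n = 3 each). ECM33 and RPL7A intron 2 were therefore among the largest positive differences from both genotypes, whereas the DBP2 change was larger than in wild type and smaller than in mud1D.

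Sequence features were set beside the changes for the 222 tested introns with 1 unambiguous annotated intron. Introns that rose had a median length of 322 bases, those that fell 96 and those not called 92, against 154 over all 222. Length and the nam8D change had a Spearman correlation of 0.51 (n = 222), but of -0.19 within the 86 ribosomal protein introns and 0.19 within the 136 others, and ribosomal protein introns are mostly the long ones. A 5′ splice site other than GTATGT was present in 21.6% of all, in 20% of those that rose and in 35.3% (6 of 17) of those that fell. The branch point motif TACTAAC, searched on the gene's strand within the intron, was held by 84.2% of all, 88.8% of those that rose, 76.5% of those that fell and 71.1% of those not called.

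The uridine-rich stretch that Nam8 is known to contact was described by the share of T in bases 7 to 36, the 30 bases after the splice site shown above. MRK1 had 76.7% T, reached or exceeded by 2 of 222 introns counting itself, and ECM33 and DBP2 had 63.3% (6 of 222), against a median of 33.3%. The change from log phase to 48 h differed strongly from the wild-type change in ECM33 and DBP2. For MRK1 the difference in change did not pass (log2 difference -0.06), although its share was above wild type in both phases, as given above. The 8 introns with at least 60% T also included NOG2, SEC14, PCH2, NCE101 and MRPL44. The median difference of their change from the wild-type change was 1.17, against 0.84 over the 222. MRPL44 and NCE101, at 60% T, had values below 0 (-0.80 and -0.23). Over all 222 introns the Spearman correlation of T share with the difference in change from wild type was 0.02. An intron with a raised share in both phases, such as MRK1, can have a difference in change near 0. These values therefore do not describe how shares differed from wild type within a phase.

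The other 18 introns stand outside the joint fit. Of these, 10 were tested in a fit of the 6 nam8D libraries alone, where SAR1, the GTPase that starts COPII vesicle formation, rose (log2 change 2.25 ± 0.14 SE, adjusted p = 2.65e-09) and MUD1 rose slightly (log2 change 0.39 ± 0.15 SE, adjusted p = 0.0239), with its share at 6.602%, 6.04% and 7.25% in log phase and 8.04%, 8.47% and 9.09% at 48 h. GOT1 (log2 change 0.39) and YNL050C (0.34) also rose and MMS2 fell (-0.35), while YDL012C, MAF1, GIM4, EFM5 intron 2 and PSP2 did not pass. The rises of MUD1, GOT1 and YNL050C were below the median log2 change of 1.10 over the 265 introns. The last 8 were not tested for want of counts or of listing in all libraries. They were BUD25, MEI4, HOP2 intron 1, HFM1, AMA1, SAE3, GMC2 and SPO1, most of them meiotic genes.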

How the data were processed

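The deposited table holds whole-number counts of mature and premature reads per intron and library, and these were not normalized, per the file headers. The submitters' processing notes list STAR 2.7.2b, fastp 0.20.0, FastQC and the build R64 without saying what each did. The authors' rule for calling a read mature or premature, the strand setting, the treatment of gene copies and any use of molecular identifiers are not given in the sources used here. Nothing in the labels says whether replicates came from separate cultures, so SDs, SEs and p-values reflect only how these libraries vary, possibly for technical reasons. Replicates differed by more than counting error.

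Splicing was tested with edgeR 4.0.16 (R 4.3.3), with premature and mature counts as 2 columns per library, library terms plus premature-column terms for each group, in a single quasi-likelihood model of 23 libraries and the 265 introns listed in all of them with a mean of at least 20 counts. Tested was the change in the log2 ratio of premature to mature. Its differences from wild type (the mean of the changes in WTa and WTb) and mud1D were contrasts of that fit. Introns listed in all 6 nam8D libraries but outside it were tested in a fit of those 6. Abundance was the sum of both counts, scaled to the library total, tested with edgeR after filterByExpr. P-values were two-sided, with Benjamini-Hochberg adjustment over all introns of a comparison and a threshold of 0.05. CPM is counts scaled to a library total of 1000000. Centred libraries used limma 3.58.1 on log2 of premature over mature with a pseudocount of 0.5.

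Alternatives were DESeq2 1.42.0, limma with a pseudocount of 0.5 or 5, centring, a count minimum of 100 or none, TMM or RLE factors, mature counts only, fewer libraries, WTa or WTb alone, strain name, replicate number and leaving out each nam8D library. The statistics were tested on simulated data. The members, the 18 gene lists and the tests were chosen with earlier results of these data known. Introns are named by size: the 12 largest increases and 10 largest decreases in splicing and 8 each in abundance among those called with groups that did not overlap, the 6 largest differences each way, in each list the 2 smallest p-values, and a set of genes known from splicing studies. Several introns picked by list p-value are not described above. The RPL43B, USV1, NCE101 and HMRA1 introns, other exceptions to a list and introns called in opposite directions were named after their values were seen. Figures and tables used Python 3.11.15 with numpy 2.4.6, pandas 2.3.3 and matplotlib 3.10.9. An intron that this rule names is not reported here. Coordinates were used for 239 introns where 1 annotated intron faced 1 listed intron.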

Additional observations from a re-analysis of the deposited data

Results flagged for a closer look

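Differences between genotypes in the change at 48 h are collected here, as log2 differences by edgeR's quasi-likelihood test that passed over all 265 introns. Against wild type the largest positive differences were DMC1 3.22, ECM33 3.05, BMH2 2.57, RPL7A intron 2 2.42, DBP2 2.37 and CQD1 2.36. On the negative side were RPS22B intron 2 at -0.97, MRPL44 at -0.80, RPS9A at -0.75, RPS22B intron 1 at -0.61, SIM1 at -0.57 and RPS14B at -0.52. For the DMC1 intron the nam8D libraries held 38.7% to 51.0% premature RNA at 48 h, so the difference came with a fall in wild type. Its difference from the mud1D change did not pass.

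Introns that rose in nam8D and fell in wild type were chosen by those opposite calls, which fix the sign of the difference. Beside CQD1 above, the values were as follows. ACT1 had 2.04, VPS75 1.97, RAD14 1.85, TMA20 1.68, MOB1 1.58 and RIM1 1.54. Smaller values were found for SRB2 with 1.09, MCM21 with 1.03, DYN2 with 1.01, SAC6 with 0.90, SUS1 intron 1 with 0.86, LSB3 with 0.85, OST5 with 0.83, RBS1 with 0.67, ERV1 with 0.66 and PTC7 with 0.64. With centred libraries the difference passed for 7 of the 17.

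Against mud1D, the positive differences were DID4 1.05, MAY24 1.02, RPL7A intron 2 1.01, ECM33 0.97, TMH18 0.95 and BET4 0.93. The negative ones were RPL16B at -1.36, SRC1 at -1.18, DBP2 at -1.08, RPL18B at -0.87, URA2 at -0.85 and NOG2 at -0.80.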

How the results depend on the processing

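Splicing calls kept within 1.5 times of 188 and 26 under the alternatives tried, except with libraries centred on the median intron (102 and 107). Centring also gave 49 and 61 for the difference from wild type and 8 and 84 for that from mud1D, whose median it moved to -0.29. It turned the sign of MRK1 (-1.07), CMC4 (-0.44), DMC1 (-0.99), DID4 (-0.19), MAY24 (-0.77), NOG2 (-0.81), REC107 (-0.69), TAD3 intron 2 (-0.45) and CGI121 (-0.20). With WTb alone the difference from the wild-type change was negative and passed for 4 introns. The mud1D counts of 26 and 14 became 10 and 6 in a fit of both mutants alone and 9 and 9 with strain name as a term, which also turned MND1 (0.024), MRK1 (-0.12) and DMC1 (-0.16). Abundance calls of 78 lower became 123 with RLE factors and 123 with DESeq2, both of which turned RPS4B (-0.15), ACT1 (-0.038) and COF1 (-0.21), and TMM factors turned COF1 (-0.061). Mature counts alone turned RPL18B (-2.14), ECM33 (-0.72), GCR1 (0.94), RPS22B intron 2 (0.0064), UBC12 (-0.054), YRA1 (-0.48) and CIN2 (-0.22). That setting leaves out premature counts and so describes the mature form only. Its changes passed for RPL18B, ECM33, GCR1 and YRA1 and not for RPS22B intron 2, UBC12 and CIN2. The cause of these shifts was not tested.

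Leaving out 1 nam8D library at a time gave 182 to 191 and 23 to 27 splicing calls, 186 to 213 and 5 to 8 against wild type, 7 to 34 and 8 to 20 against mud1D, 147 to 151 and 77 to 83 for abundance, and 4.25 to 5.04 points for the difference in median premature share (4.62 points with all). Values near 0 changed sign: in splicing MRK1 (-0.052 to 0.22), DMC1 (-0.039 to 0.36) and SRC1 (-0.26 to 0.23), and in abundance URA2 (-0.21 to 0.032), KEI1 (-0.075 to 0.046), GCR1 (-0.18 to 0.0031) and RPS22B intron 2 (-0.28 to 0.043).

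No pairing of the samples by replicate number was seen: deviations of same-numbered libraries correlated at -0.08, -0.22 and -0.09 over 265 introns, and no library correlated best with its own number. With 3 libraries per group these values cannot show that pairing was absent. With the replicate number as a block the counts were 187 and 25 for splicing, 206 and 7 against wild type, 29 and 16 against mud1D, and 151 and 80 for abundance. At the depth of the 48 h libraries, introns that were nearly wholly unspliced or rarely read, such as PCH2, left changes in share poorly resolved.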
